A study of Mus musculus with 4 samples.

Results

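*Gm14399* and 9 related zinc-finger genes of chromosome 2 (*Gm14391*, *Gm4724*, *Gm6710*, *Gm2026*, *Gm14434*, *Gm14308*, *Gm14305*, *Gm14325* and *Gm14326*) were examined in large intestinal (LI) Treg cells with and without Setd2, as 10 of the 53379 genes of the deposited table. The 10 genes were taken by symbol, and they were chosen with their values in control and KO libraries already known, so the difference between KO and control in these genes is given as a description, with no test. Treg cells were sorted as CD3+CD4+YFP+ cells from the LI of C57BL/6 mice at steady state, and the study asked how gene expression changes when Treg cells lose Setd2, a methyltransferase that places trimethyl marks on lysine 36 of histone H3. The control group (Setd24flox/+Foxp3-YFPcre in the labels, 2 libraries) carried 1 floxed copy of *Setd2*, and the KO group (Setd24flox/floxFoxp3-YFPcre, 2 libraries) carried 2. Both groups thus expressed Cre and YFP from the *Foxp3* gene, which restricts deletion to Foxp3-expressing cells and their descendants, and both came from age-matched adult littermates. Cells of 2 to 3 mice were pooled for each library, and the replicates are therefore pools and not single mice.

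Proteins of this family join an N-terminal KRAB domain to a C-terminal array of C2H2 zinc fingers. The fingers bind DNA, often within transposable elements, and the KRAB domain binds the corepressor Trim28, which brings in the H3K9 methyltransferase Setdb1, HP1 proteins and histone deacetylases. The genes lie in clusters that grew by repeated duplication, and recent mouse copies differ from each other mainly in the number and sequence of their fingers. What each of the 10 proteins binds is not known from these data.

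The relatedness of the genes decides how well short reads can tell them apart, so their sequences come first. The 127-base coding exon that encodes most of the KRAB A box was present in all 10 genes (GENCODE transcripts, GRCm38). *Gm14399* and *Gm14326* had the same sequence in this exon. *Gm6710* was identical to *Gm14391*. *Gm14308*, *Gm4724*, *Gm14305* and *Gm2026* were identical to *Gm14434*. The 4 distinct versions are shown 5′ to 3′ on the strand of the gene, with capitals at bases that differ from *Gm14399*. They are exon 2 of *Gm14399* (chr2:175133196-175133322, minus strand), exon 3 of *Gm14391* (chr2:175197807-175197933, minus strand), exon 2 of *Gm14325* (chr2:177834520-177834646, minus strand) and exon 2 of *Gm14434* (chr2:176476007-176476133, minus strand).
Gm14399: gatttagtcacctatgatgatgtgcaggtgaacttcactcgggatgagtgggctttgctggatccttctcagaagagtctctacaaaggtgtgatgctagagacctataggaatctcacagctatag
Gm14391: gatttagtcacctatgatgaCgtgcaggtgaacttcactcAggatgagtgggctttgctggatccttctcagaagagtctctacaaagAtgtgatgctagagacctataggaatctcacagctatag
Gm14325: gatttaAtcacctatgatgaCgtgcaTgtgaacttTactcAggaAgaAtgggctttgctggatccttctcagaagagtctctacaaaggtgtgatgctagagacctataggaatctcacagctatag
Gm14434: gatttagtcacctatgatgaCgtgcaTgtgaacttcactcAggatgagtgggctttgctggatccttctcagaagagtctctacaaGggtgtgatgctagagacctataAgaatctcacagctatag
The version of *Gm14391* differed from that of *Gm14399* at 3 bases, that of *Gm14434* at 5 and that of *Gm14325* at 7. *Gm14325* therefore carried the most distant KRAB exon, although its transcript as a whole was not farther from *Gm14399* than the others were.

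The best local alignments of the longest coding transcripts covered 78.2% to 87.9% of the *Gm14399* transcript. Within them, *Gm14399* matched the other 9 genes at between 90.3% identity (*Gm14326*) and 91.4% (*Gm14325*). It was the longest of the set, with 610 residues and 18 matches to the C2H2 motif, compared with 498 to 554 residues and 13 to 16 motifs in the other 9. *Gm14308*, *Gm4724*, *Gm14434* and *Gm2026* had 13 motifs each and were closer still. *Gm14308* was identical to *Gm14434* and to *Gm2026* over 1497 bases and to *Gm4724* over 1628 bases, and it matched *Gm14305* at 99.5%. *Gm14325* and *Gm14326* matched each other at 97.2%.

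To put this on the scale of the reads, every 150-base window of each gene's transcripts, the length of 1 read, was looked up in the transcripts of all other genes. *Gm14399* shared 31.4% of its windows with at least 1 other gene, the lowest share of the 10. *Gm14391* shared 36.9%, *Gm14325* 42.5%, *Gm14326* 46.9% and *Gm14305* 52.5%. The other 5 shared between 88.4% (*Gm6710*) and 99.7% (*Gm14434*), so a single read from them could rarely be assigned to 1 gene by its sequence. With windows of 50 bases the share in *Gm14399* was 69.8%, and the lowest was that of *Gm14391* (35.8%). For *Gm14399*, the genes with the most windows in common were *Gm14326* (23.0% of its windows) and *Gm14325* (15.6%). Outside the set, other genes of the same interval also held such windows. *Gm4631* held 45.4% of the windows of *Gm14308* and 55.7% of those of *Gm4724*. *Gm11007* and *Gm2007* each held 41.9% of those of *Gm14308*. *Gm14410*, another zinc-finger gene there, held 33.0% of the windows of *Gm14308* and 20.9% of those of *Gm14326*.

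**Figure D1:**
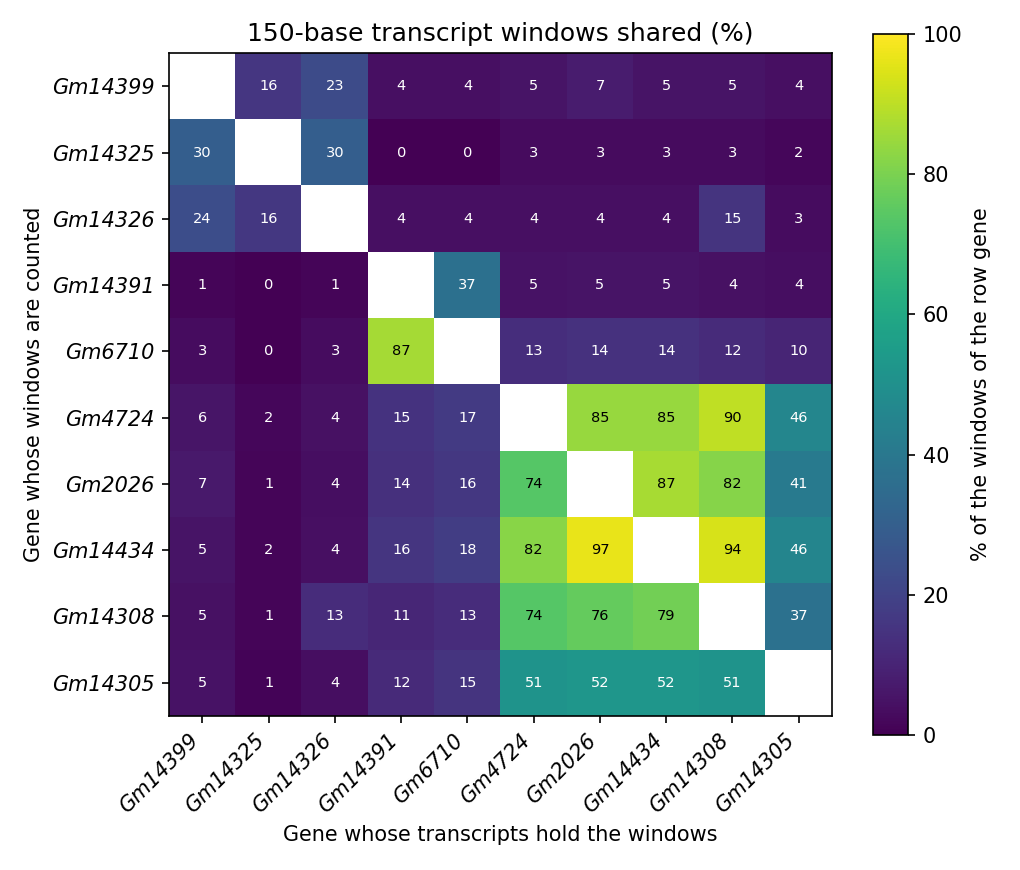
Share of the 150-base transcript windows of each gene (rows) that were found, base for base, in the transcripts of each of the other 9 genes (columns), in percent of the windows of the row gene; blank squares on the diagonal are a gene with itself. *Gm4724*, *Gm2026*, *Gm14434*, *Gm14308* and *Gm14305* form a block of high sharing, *Gm6710* is mostly contained in *Gm14391*, and *Gm14399* shares 23.0% of its windows with *Gm14326* and 15.6% with *Gm14325*.

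The shared windows of *Gm14399* were not spread evenly. Along its longest coding transcript, 45.3% of 1762 windows occurred in another gene. Of the 269 windows that start before the last exon, which hold the KRAB region, 71.7% were shared, compared with 40.5% of the 1493 windows inside the last exon, which encodes the fingers. A single window was found in up to 15 other genes. Between bases 373 and 881, and again between bases 1357 and 1865, 360 windows in a row were found in no other gene, so reads from these stretches of the zinc-finger exon match no other annotated gene in full.

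**Figure D2:**
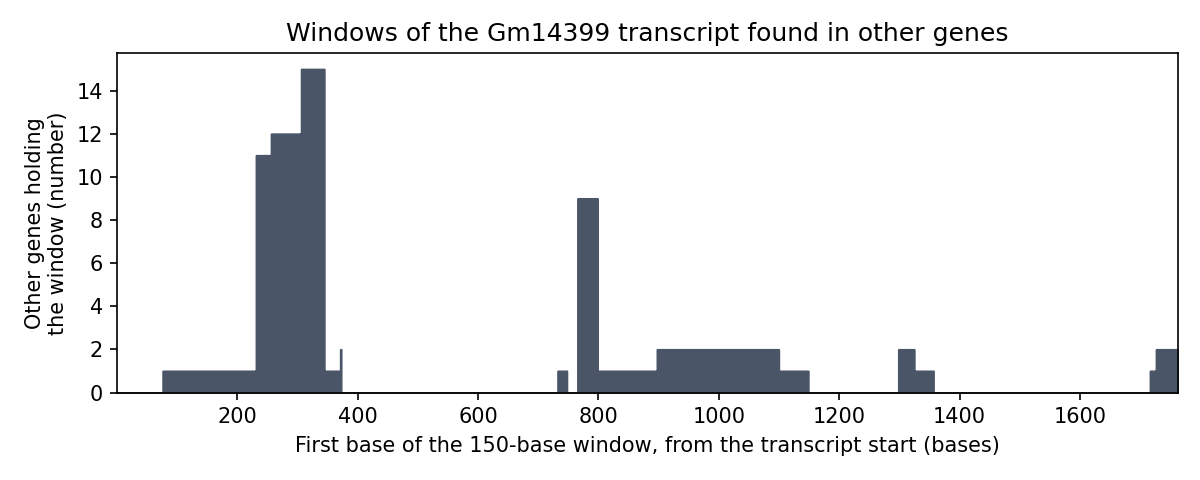
Number of other genes whose transcripts hold each 150-base window of the longest coding *Gm14399* transcript, against the first base of the window. Up to 15 other genes hold windows near the 5′ end, and 2 runs of 360 windows are found in no other gene.

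Expression was measured by RNA-seq as FPKM, in which fragments are scaled to transcript length and to the total that mapped. Values at the same rank were nearly equal in all 4 libraries, which this scaling alone does not give. The step that made them so is not named, so depth is unknown, and no counting error can be given. Genes above 0 numbered 19422 in control 1, 19889 in KO 1 and 20156 in KO 2, and 24953 in control 2, which stood apart. The FPKM of *Setd2* over the whole gene was 38.19 and 27.36 in control and 26.33 and 36.30 in KO. These ranges overlapped, so the gene did not check the labels, and the fragments of the deleted exons were not measured separately. Of the Treg markers, *Cd4*, *Cd3e*, *Ctla4*, *Il2ra* and *Ikzf2* were at 84.12 or above in every library, whereas *Foxp3*, the defining one, was at 2.62 to 5.61. Among markers of other cells, *Lyz2* lay between 127.83 and 167.97, with *Adgre1* and *Csf1r* at 6.24 or below. Summed B cell markers reached 4.88 and summed CD8 T cell markers 2.96. *Epcam* was lower in KO (19.58 and 21.13) than in control (28.65 and 30.81), while *Krt8* and *Vil1* were at 0.19 or below, and the part of *Epcam*-expressing cells in the results was not tested. In cells sorted in bulk, fewer expressing cells and less RNA per cell cannot be told apart.

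*Gm14399* was the most abundant of the 10 genes in control Treg cells and was close to 0 in KO Treg cells. The gene (ENSMUSG00000090093, chr2:175129493-175142012, minus strand) reached an FPKM of 34.02 in control 1 and 32.99 in control 2, and of 0.89 in KO 1 and 0.53 in KO 2. Both KO libraries were far below both control libraries, and the pools within a group were close to each other. The mean was 33.5 ± 0.728 (SD, n = 2) in control and 0.71 ± 0.255 (SD, n = 2) in KO, a ratio of 47.2. On the log2(FPKM + 1) scale, on which low values are pulled together, KO was lower than control by a log2 difference of -4.34 (standard error 0.20). Among the 7639 protein-coding genes whose mean FPKM exceeded 5 in control or KO this was the most negative difference, and the next was -2.59. The level in control was not unusual, at the 61.45th percentile of the same genes.

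*Gm14325* and *Gm14391* also had both KO libraries below both control libraries, at much lower levels. *Gm14325* (ENSMUSG00000095362, chr2:177831791-177840336, minus strand) was measured at 6.93 and 3.93 in control and 2.15 and 0.29 in KO. Its log2 difference was -1.63 (standard error 0.44), and its KO libraries differed from each other 7.41-fold. *Gm14391* (ENSMUSG00000078903, chr2:175191065-175206917, minus strand), the nearest of the set to *Gm14399* on the chromosome, was measured at 2.06 and 1.37 in control and 0.88 and 0.28 in KO, with a log2 difference of -0.80 (standard error 0.32). Both genes thus lay below 7 in every library, where *Gm14399* stood above 30 in control.

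In the other 7 genes the control and KO libraries overlapped. *Gm14326*, which has the KRAB exon of *Gm14399*, was at 3.31 and 4.79 in control and 2.07 and 4.86 in KO, with a log2 difference of -0.24 (standard error 0.34). Its highest library was a KO library, so the gene with the most windows in common with *Gm14399* did not separate the groups. The 5 near-identical genes varied widely between the control pools. *Gm4724* had 3.15 and 8.38 in control and 2.14 and 5.41 in KO (log2 difference -0.48, standard error 0.45). *Gm14308* had 5.34 and 1.08 in control and 2.69 and 0.70 in KO (-0.54, standard error 0.56). In both, the higher control library was more than 2-fold above the other, and they went opposite ways, with *Gm4724* higher in control 2 and *Gm14308* higher in control 1. *Gm14305* had 5.15 and 1.76 in control and 2.94 and 3.28 in KO, a log2 difference of -0.0047 (standard error 0.37). The annotated span of this gene overlaps that of *Zfp973* on the same strand. Their transcripts have no 150-base window in common, but 6.7% of the 50-base windows of *Gm14305* also occur in *Zfp973*. *Gm14434* was at 2.97 and 0 in control and at 2.83 and 3.02 in KO (0.98, standard error 0.57). *Gm2026* was at 0 and 2.00 in control and at 1.52 and 0.94 in KO (0.35, standard error 0.50). These 2 genes were thus each listed at 0 in 1 control library, and not in the same one. *Gm6710*, most of whose sequence *Gm14391* shares, had 2.23 and 0.33 in control and 1.78 and 1.15 in KO (0.24, standard error 0.43).

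**Figure D3:**
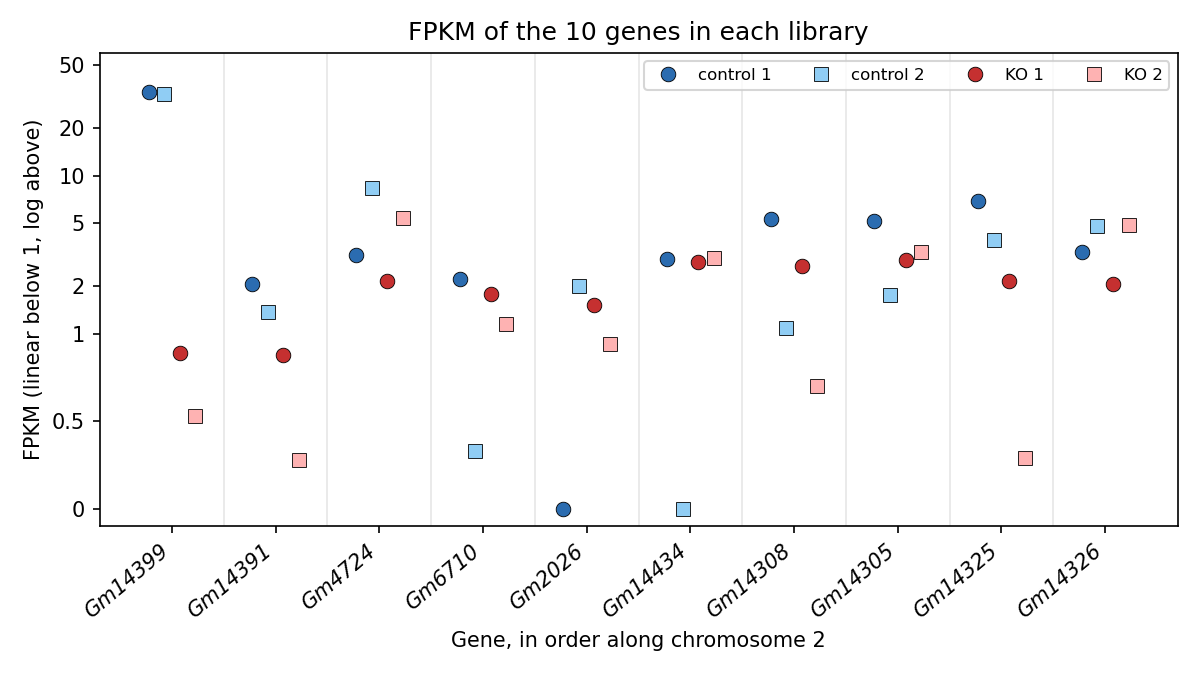
FPKM of the 10 genes in each library, in their order along chromosome 2; each point is 1 pooled library (blue, control; red, KO), and the axis is linear below 1 and logarithmic above. *Gm14399* stands at 34.02 and 32.99 in control and at 0.89 and 0.53 in KO, whereas the groups overlap in 7 of the other genes.

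Across the set, the log2 difference was negative in 7 genes and positive in 3, with a median of -0.36, or -0.24 without *Gm14399*. Over protein-coding genes with a mean FPKM of at least 1 in either group, a filter that all 10 passed, the median was 0.00. The set was chosen on this contrast, so these medians are not compared. Both KO libraries were below both control libraries in 3 of the 10 and above them in 0, and over the 10424 protein-coding genes with a mean FPKM of at least 1 in either group 22.3% had both KO libraries below. Only 3 of the 10 passed the mean FPKM of 5 that the study's criteria set: *Gm14399*, *Gm4724* (5.77 in control) and *Gm14325* (5.43 in control). *Gm14326* fell just short, with 4.05. A gene that passed through its control level alone was more open to being low in KO. In limma, 1 of these 3, *Gm14399*, was lower in KO at an adjusted p below 0.05, a call made for 0.275% of the genes tested, and 2 of the 3, *Gm14399* and *Gm14325*, had an unadjusted p below 0.05, as 16.2% of the genes tested had. The genes were chosen from this contrast, so nothing is read from these counts.

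Between the control pools, *Gm14399* had the smallest fold difference of the set. The gene was also the most abundant in control and was chosen on this contrast, so nothing is read from its steadiness. Its control libraries differed 1.03-fold, while those of the other genes above 0 in both differed between 1.45-fold (*Gm14326*) and 6.76-fold (*Gm6710*). In KO, where its level was near 0, its libraries differed 1.68-fold, more than those of *Gm14434*, *Gm14305*, *Gm6710* and *Gm2026*. With 2 pools against 2, the smallest p that exact permutation allows for 1 gene is 0.333.

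Because a read shared by near-identical genes can be counted for any of them, the FPKM was also summed within 3 groups of genes that share windows. The groups were built from the sequences alone, joining genes where at least 20% of the windows of the smaller one were shared. *Gm14399*, *Gm14325* and *Gm14326* together had 44.26 and 41.71 in control and 5.11 and 5.68 in KO, a log2 ratio of the means of -2.99. *Gm14399* itself made up most of the control sums, with a mean of 33.5 out of 43.0. *Gm14410*, which shares windows with *Gm14326*, was not in these sums, and the part of shared reads in the difference was not tested. *Gm14325* and *Gm14326* alone summed to 10.24 and 8.72 in control and 4.22 and 5.15 in KO (log2 ratio -1.02), so these KO sums were lower too.

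*Gm4724*, *Gm2026*, *Gm14434*, *Gm14308* and *Gm14305* summed to 16.61 and 13.22 in control and 12.12 and 13.35 in KO (log2 ratio -0.23). The highest library of this sum was 1.37-fold above the lowest and the groups overlapped, whereas the 3 of these genes that were above 0 in every library ranged between 2.93-fold (*Gm14305*) and 7.63-fold (*Gm14308*). The sum over the near-identical genes thus varied less than these 3 genes, which summing alone can bring about, so nothing is read from it on shared reads. *Gm14391* and *Gm6710* summed to 4.29 and 1.70 in control and 2.66 and 1.43 in KO, and overlapped (log2 ratio -0.55).

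**Figure D4:**
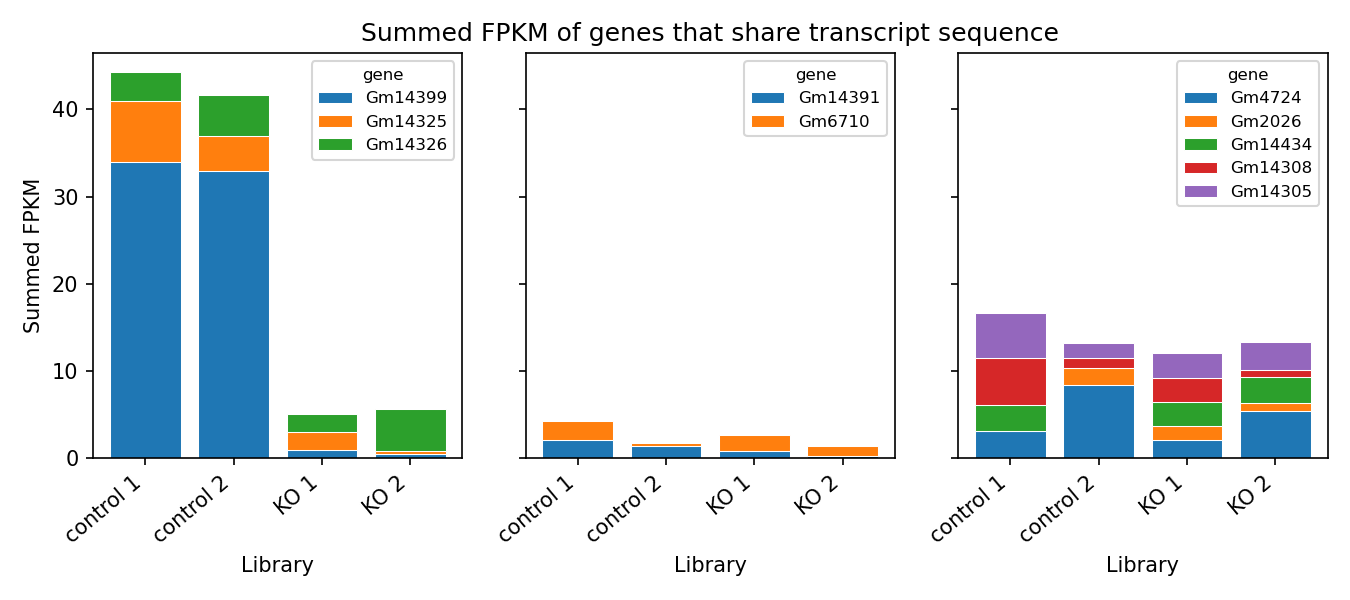
FPKM per library (1 bar each, 2 control and 2 KO) stacked by gene within the 3 groups of genes that share transcript sequence. The group of *Gm14399* falls from 44.26 and 41.71 in control to 5.11 and 5.68 in KO, and the group of 5 near-identical genes stays between 12.12 and 16.61 while the shares of its genes shift between libraries.

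All 10 genes summed to 65.16 and 56.63 in control and to 19.89 and 20.46 in KO, a 3.02-fold difference of the means (log2 ratio -1.59). *Gm14399* made up 52.2% and 58.3% of this sum in control, and 4.47% and 2.59% in KO. Without it the sums were 31.14 and 23.64 in control and 19.00 and 19.93 in KO (log2 ratio -0.49).

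The 10 genes span 2.83 Mb, with 7 on the minus and 3 on the plus strand, in an interval that holds 76 genes of the table. *Gm14399* lies at one end and *Gm14325* and *Gm14326* at the other, so the genes with the most 150-base windows in common with *Gm14399* are the farthest from it. The other zinc-finger genes of the interval were 31 by a list of symbols, and they were not searched for the C2H2 motif. The list includes *Gm11008*, annotated as a lincRNA, and *Gm14411*, annotated as an unprocessed pseudogene. None of the 31 reached a mean FPKM of 5, and 6 were at 0 in every library. Of the 5 with a mean FPKM of at least 1, limma called 0 at an unadjusted p below 0.05 in either direction, and their median log2 difference was 0.24. The highest, named after its values were seen, was *Gm14410*, with 5.06 and 2.99 in control and 2.44 and 3.15 in KO. Together the 31 genes summed to 16.90 and 10.53 in control and 12.93 and 12.61 in KO, which overlapped. The 35 remaining genes of the interval included none with a mean FPKM of at least 1 that is protein-coding.

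The genes tested nearest to the interval were *Prelid3b*, *Atp5e* and *Ctsz*, 0.656 to 0.690 Mb before it, and *Psma7*, *Mtg2* and *Osbpl2*, 2.08 to 2.16 Mb after it. *Prelid3b*, a lipid transfer protein of mitochondria, was at 86.96 and 87.98 in control and at 74.13 and 81.48 in KO (log2 difference -0.17, standard error 0.12, adjusted p = 0.523 by limma with Benjamini-Hochberg adjustment). *Psma7*, a subunit of the proteasome core, was at 458.32 and 462.52 in control and at 437.82 and 446.59 in KO (log2 difference -0.06, standard error 0.10, adjusted p = 0.832 by limma). The log2 difference of the other 4 lay between -0.13 (*Ctsz*) and 0.21 (*Atp5e*), and 0 of the 6 passed at an adjusted or an unadjusted p of 0.05. No comparison with *Gm14399* is drawn, since that gene was chosen on this contrast and had the most negative difference of the genes tested.

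**Figure D5:**
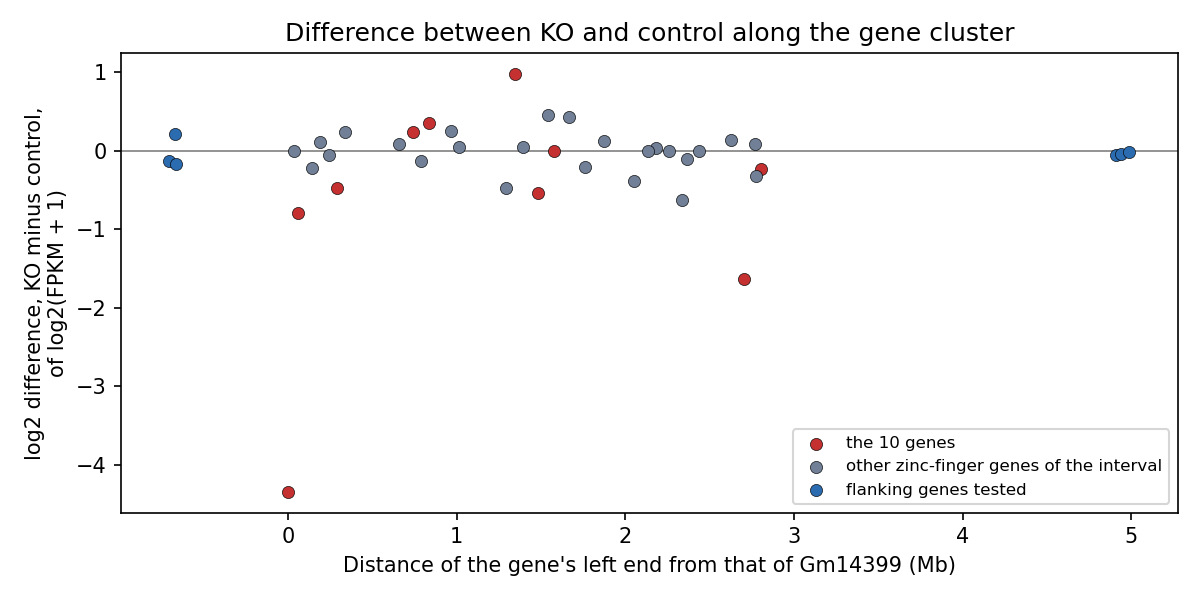
Difference between KO and control on the log2(FPKM + 1) scale against the distance from *Gm14399* in Mb, for the 10 genes (red), the other zinc-finger genes of the interval above 0 in at least 1 library (grey) and the nearest genes tested on either side (blue). *Gm14399* is at -4.34 and *Gm14325*, near the other end, at -1.63.

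None of the tested partners through which KRAB proteins repress passed the test in either direction. Of 20 corepressor genes listed, 19 were found by symbol and 18 were tested. Limma called 0 of the 18 at an adjusted p below 0.05 and 0 at an unadjusted p, with 8 differences positive, 10 negative and a median of -0.02. Over all genes tested 16.2% had an unadjusted p below 0.05, and 45 of 7639 had an adjusted p below 0.05. *Trim28*, the direct partner of the KRAB domain, stood at 64.05 and 58.00 in control and 59.61 and 60.19 in KO (log2 difference -0.02, standard error 0.12, adjusted p = 0.951 by limma). *Setdb1*, the H3K9 methyltransferase, had 4.57 and 5.56 in control and 5.75 and 4.42 in KO, which overlapped. *Cbx3*, which encodes an HP1 protein, was the highest of the list, with 444.26 and 305.59 in control and 441.83 and 449.20 in KO (log2 difference 0.27, standard error 0.17, adjusted p = 0.480 by limma). The groups also overlapped in *Rbbp7* and *Hdac1*, both of histone deacetylase complexes, in *Mta2* of the NuRD complex and in the chromatin remodeller *Atrx*, with log2 differences between -0.10 (*Rbbp7*) and 0.11 (*Atrx*).

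For zinc-finger genes elsewhere in the genome, 136 genes named Zfp and a number were tested. Of these, 10 were higher and 10 lower in KO at an unadjusted p below 0.05 (14.7%, against 16.2% of all genes tested), and limma called 0 at an adjusted p. Of the 54 protein-coding genes named Gm and a number outside the set, 10 passed the unadjusted threshold as higher and 5 as lower (27.8%), and 1 was higher at an adjusted p. The median log2 difference was 0.01 in the first list and 0.03 in the second. With a mean FPKM of at least 1, the filter under which all 10 members of the set pass, these medians were -0.02 and -0.07. The median of -0.36 in the set is no comparison with them, since the set was chosen on this contrast.

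The genes whose profile over the 4 libraries was nearest to that of *Gm14399*, by Euclidean distance of centred log2(FPKM + 1) values among the 7639 genes, were *Txnl4b* (distance 2.16), *Pkd1* (2.32), *A430005L14Rik* (2.34), *Rpl29* (2.78) and *Whrn* (2.81). Each of them was high in control and low in KO, as the choice by profile fixes. *Txnl4b*, related to a spliceosome component, was at 24.84 and 21.01 in control and at 4.62 and 3.88 in KO, and *Rpl29*, a ribosomal protein gene, at 151.37 and 153.81 in control and at 39.71 and 59.21 in KO. The log2 difference of *Txnl4b* was -2.19 and that of *Rpl29* was -1.63. Both were smaller than in *Gm14399*, as the rank of that gene among the genes tested fixes. Of all protein-coding genes, *Gm14399* was the only 1 above an FPKM of 5 in both control libraries and below 1 in both KO libraries, and 1 gene, *Gm21887*, showed the reverse, with 0 in both control libraries and 89.71 and 170.96 in KO.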

How the data were processed

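RNA-seq of LI Treg cells from 2 control and 2 KO pools was used. The authors mapped paired reads of 150 bases to GRCm38 with STAR 2.5, quantified genes with RSEM 1.2 and deposited FPKM per gene. Of the 5000 highest ranks, 2172 hold 1 value in all 4 libraries, so depth is unknown and no count test was run.

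The 10 genes and the gene lists were chosen with earlier results of these data known. The values of log2(FPKM + 1) were fitted with limma 3.58.1 in R 4.3.3 (trend, no covariate, Benjamini-Hochberg adjustment) over the 7639 protein-coding genes whose mean FPKM was above 5 in control or KO. Standard errors of the 10 genes came from the same fit with a mean FPKM of at least 1.

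Positions and transcripts came from GENCODE M21 (GRCm38). Windows were compared on both strands, and transcripts aligned with blastn 2.17.0. Of 47 zinc-finger symbols listed for the interval, 31 were found there.

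Named by rule were the 10 genes, interval zinc-finger genes with a mean FPKM above 5 and the 6 most abundant corepressors. The 5 nearest profiles and 3 genes on each side were also named by rule. *Setdb1*, *Gm14410*, *Gm14295*, *Zfp973* and *Gm21887* were added after their values were seen. *Gm4631*, *Gm11007* and *Gm2007* were named for their shared windows, and *Gm11008* and *Gm14411* for their gene type. Alternatives were a pseudocount of 0.1 or 5, other filters and gene types, median-centring, no trend, a replicate block, each library left out, other sums and windows of 50 bases. A crossed replicate block and the sums by sequence group were chosen after seeing the data.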

Additional observations from a re-analysis of the deposited data

How the results depend on the processing

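*Gm14399* had a negative log2 difference in 13 of 13 alternatives (-5.41 to -2.75). So did *Gm14325* in 13 of 13 (-2.51 to -0.75) and *Gm14391* in 8 of 8 (-1.55 to -0.27). Each of the other 7 genes changed sign in at least 1. In *Gm14399*, *Gm14325* and *Gm14391* both KO libraries were below both control libraries, so no pseudocount or left-out library could change the sign. Other filters leave the difference as it was. Nothing is read from these tallies, since the genes were chosen on this contrast. With no filter on low values, the adjusted p of *Gm14399* was 0.123 by limma, so it was not called there. In the other fits over all 4 libraries its adjusted p by limma was below 0.05. The gene was chosen from this contrast, so nothing is read from these p values. The log2 ratio of all 10 summed, -1.59, was -1.69 to -1.49 with 1 library left out, -0.49 without *Gm14399*, -1.18 over all zinc-finger genes of the interval, and -2.99, -0.55 and -0.23 within the groups of *Gm14399*, *Gm14391* and *Gm4724*. The 45 calls at an adjusted p below 0.05 became 27 with a mean FPKM of at least 1, 11 with no filter, 13 over all gene types and 3 without the trend, and 2 to 66 with 1 library left out. Few calls were left without KO 1 (2) or KO 2 (3). The 1236 calls at an unadjusted p became 2027 with no filter and 644 to 1250 with 1 library left out. Corepressor calls were 0 to 1 with 1 library left out. Same-numbered libraries deviated with r = -0.305, so the numbers did not pair them. With the replicate number as a replicate block the calls were 27 (adjusted) and 796 (unadjusted). With the crossed replicate block, chosen after seeing the data, they were 465 and 1991. The cause of these shifts was not tested. Since depth is unknown, a value listed at 0 has no detection limit, and the split of shared reads between near-identical genes cannot be checked.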
